A study of Caenorhabditis elegans with 2 samples.

Results

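The genes rpr-1, mrpr-1 and srpr-2.2 of Caenorhabditis elegans encode the RNA of RNase P, the RNA of RNase MRP and a signal recognition particle (SRP) RNA. They were chosen by their peaks in a chromatin immunoprecipitation and sequencing (ChIP-seq) data set for the transcription factor HLH-12, so their signals and ranks are given here as a description, with no test. The 3 genes are among 7764 nuclear genes of the annotation class ncRNA and 46890 nuclear genes in all. HLH-12 belongs to the basic helix-loop-helix factors, which bind the E-box sequence CANNTG, and it is known for its part in distal tip cell migration. The animals were hermaphrodite young adults of strain OP538, collected 64 hours after being synchronized as starved L1 larvae. All of them carried the unc-119 mutation tm4063 on chromosome III and the transgene wgIs538, a single stable line that expresses HLH-12 with a GFP-FLAG tag at its C terminus. There were 2 biological replicates of this 1 group, and an antibody against GFP was used. Whole animals were used, so each signal averages over all their cells, and a library of untagged animals was not analysed here.

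RNase P is a ribonucleoprotein whose RNA cuts the leader off precursor tRNAs. RNase MRP is a related ribonucleoprotein that shares most of its protein subunits and, in yeast, takes part in the processing of precursor ribosomal RNA. The SRP RNA is the scaffold of the particle that brings ribosomes making secreted and membrane proteins to the endoplasmic reticulum. In animals and yeast these RNAs are made by RNA polymerase III, the enzyme that also transcribes tRNA genes.

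Each of the 3 genes had a peak summit within 200 bp in all 4 ce11 lists. These were the relaxed list of each replicate, the relaxed list made from the reads of both (the pooled list), and the IDR list. IDR stands for irreproducible discovery rate, by which that list was thresholded. Its nuclear peaks are the 230 nuclear pooled peaks of highest signal. Being in it thus does not show that a given peak ranked alike in both replicates. The IDR peak at pooled rank 192, on chromosome I, had no value in replicate 1. All coordinates are ce11 and count from 1. The annotation class ncRNA gives the background: 16.8% of its nuclear genes had a summit within 200 bp in the list of replicate 1, 15.9% in that of replicate 2, 8.29% in the pooled list and 1.64% in the IDR list. For nuclear tRNA, snoRNA, snRNA, rRNA and microRNA genes, 39.0% of 1368 had a pooled summit and 13.4% an IDR summit. The members were picked for having such summits, so nothing is read from their count against these shares. None of the 3 IDR summits had a gene of those 5 classes within 200 bp, which placed them among the 59 nuclear IDR peaks of that kind, of 230.

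The gene rpr-1 (WBGene00045238) had the strongest peak of the 3. It lies on chromosome I (13463955 to 13464207, plus strand, 253 bp), inside an intron of ints-8, which runs on the opposite strand and encodes a subunit of Integrator, the complex that forms the 3′ ends of snRNAs. Its peak signal, the authors' value for the strength of a peak, was 74.4 in replicate 1 and 36.9 in replicate 2, a mean of 55.6 ± 26.5 (SD, n = 2). Replicate 1 was thus 2.02-fold higher than replicate 2 at this gene, where the median ratio over the 229 nuclear IDR peaks with a value in both lists was 1.38 and the upper quartile 1.64. Of those 229 peaks, 30 had a larger ratio. The pooled signal was 112.0, rank 21 of 6661 nuclear pooled peaks. Its rank was 15 of 19782 nuclear peaks in replicate 1 and 69 of 22556 in replicate 2, near the top of each list. The deposited −log10 q value of the pooled peak, 1.13, was the same at all 3 members. Only 2 of the 59 IDR peaks away from the small RNA classes had a higher pooled signal, as had 7 of 124 at tRNA genes, 10 of 35 at snoRNA genes and 1 of 10 at snRNA genes.

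The summit of rpr-1 sat at the start of the gene in every list. The pooled summit was at base 19 of 253, the summit of replicate 1 at base 21 and that of replicate 2 at base 37. The replicate summits were 16 bp apart, against a median of 38 bp over the 229 nuclear IDR peaks with a peak in each list. Beyond the host gene, the next protein-coding genes were Y48G10A.6, 11110 bp before rpr-1, and Y48G10A.3, 6385 bp after it. The 5′ end of ints-8 was 6398 bp from the pooled summit, and the starts of the flanking genes were farther still.

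**Figure D1:**
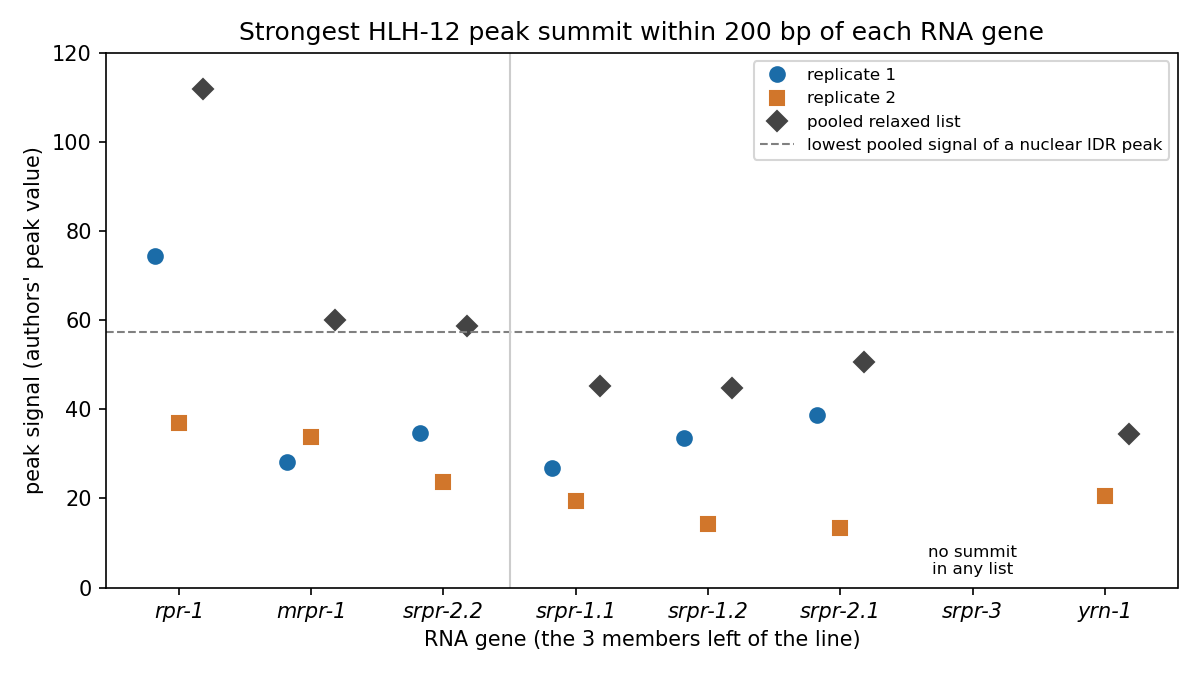
Signal of the strongest summit within 200 bp of each RNA gene (vertical axis, the authors' peak value) in replicate 1 (circles), replicate 2 (squares) and the pooled list (diamonds), with the weakest nuclear IDR peak, at 57.3, as a dashed line. The pooled signal of rpr-1 stands far above that line, mrpr-1 and srpr-2.2 lie just above it and the other genes below, and yrn-1 has no value in replicate 1.

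The gene mrpr-1 (WBGene00045095) had a weaker peak, whose signal was higher in replicate 2. It lies on chromosome II (7200233 to 7200418, plus strand, 186 bp), between protein-coding genes. Its signal was 28.1 in replicate 1 and 33.9 in replicate 2, a mean of 31.0 ± 4.08 (SD, n = 2). Replicate 2 was the higher one here, as at 48 of the 229 nuclear IDR peaks, whereas replicate 1 was higher at rpr-1, at srpr-2.2 and at 181 of the 229. The ratio of replicate 1 to replicate 2 was 0.829 at mrpr-1, where the median was 1.38, and 204 of the 229 peaks had a larger ratio. The pooled signal of 60.0 gave rank 204. The rank was 560 in replicate 1 and 101 in replicate 2, so mrpr-1 would not be among the 230 strongest nuclear peaks of replicate 1 alone.

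The position of the mrpr-1 summit differed between the lists. It was at base 48 of 186 in replicate 1, at base 151 in replicate 2 and at base 130 in the pooled and IDR lists. The replicate summits were 103 bp apart, above the upper quartile of 76 bp over the nuclear IDR peaks. The gene pcrg-1 begins 131 bp after mrpr-1 on the same strand, and its 5′ end was 187 bp from the pooled summit. On the other side, the 5′ end of E04F6.6 was 797 bp from the summit, on the opposite strand. The summit therefore lay in the promoters of both genes, where a promoter runs from 1000 bp upstream to 200 bp downstream of a protein-coding 5′ end, and a summit there cannot be assigned to mrpr-1 alone by position. The sequence of the gene, read from RefSeq's copy of the WBcel235 genome at chrII:7200233-7200418 on the plus strand, is shown with the 11 bases centred on the IDR summit in capitals.
mrpr-1: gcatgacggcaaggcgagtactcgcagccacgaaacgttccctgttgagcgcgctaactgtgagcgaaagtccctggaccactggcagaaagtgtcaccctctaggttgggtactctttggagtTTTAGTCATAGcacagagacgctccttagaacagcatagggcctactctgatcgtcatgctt

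The gene srpr-2.2 (WBGene00195017) had a peak of similar strength, close to the edge of the IDR list. It lies on chromosome III (5031410 to 5031708, minus strand, 299 bp), in an intron of klp-6, a kinesin gene on the opposite strand, and it overlaps the annotated noncoding RNA R144.16 by 39 bp on its own strand. Its strongest signal was 34.7 in replicate 1 and 23.7 in replicate 2, a mean of 29.2 ± 7.77 (SD, n = 2). The replicate ratio of 1.46 was close to the median of 1.38 over the nuclear IDR peaks. The pooled signal was 58.8, rank 213, while the last nuclear IDR peaks, at ranks 229 and 230, had 57.5 and 57.3 and the first outside, at ranks 231 and 232, both had 57.3. The rank was 234 in replicate 1 and 624 in replicate 2, so this gene would fall outside the 230 strongest nuclear peaks of either replicate alone.

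Each replicate list split the srpr-2.2 region into a pair of peaks. In replicate 1 the stronger summit was at base 97 of 299 and a second, with a signal of 13.4, lay 107 bp before the first base. In replicate 2 the stronger summit was at base 267 and a second, with 19.3, at base 63. The stronger summits were 170 bp apart, whereas the pooled and IDR lists held a single summit at base 113. The 5′ end of the host gene klp-6 was 667 bp from that summit. The flanking protein-coding genes were C45G9.6, 4750 bp before srpr-2.2 along its strand, and pcf-11, 1585 bp after it, which encodes a factor of mRNA 3′ end cleavage. A pair of summits was also found at the related genes srpr-1.2, in each replicate list, and srpr-2.1, in replicate 1. Their strongest replicate summits were 224 and 254 bp apart, farther than at srpr-2.2. These distances pair only the strongest summit of each list. At srpr-1.2 both summits recurred nearby, at 4369561 and 4369777 in replicate 1 and at 4369574 and 4369785 in replicate 2. Which was stronger changed, with signals of 33.7 and 19.1 in replicate 1 and 13.0 and 14.2 in replicate 2. At srpr-2.1 the weaker summit of replicate 1 (5211475, signal 28.8) lay near the only summit of replicate 2 (5211471). The related gene srpr-1.1 had 1 summit within 200 bp in each replicate list, and these were 67 bp apart.

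**Figure D2:**
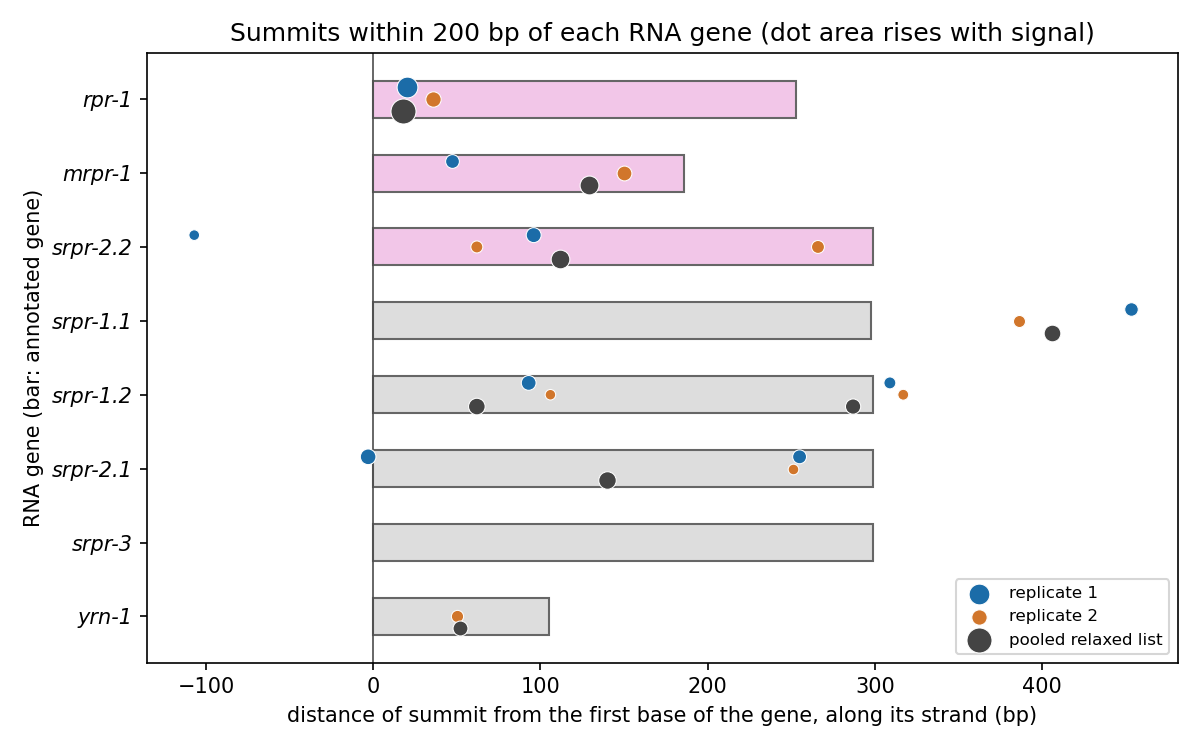
Place of every summit within 200 bp of each RNA gene, in bp from the first base along the gene's strand (horizontal axis), with annotated genes as bars (the 3 members shaded pink) and dot area rising with signal. The summits of rpr-1 cluster at its start, those of mrpr-1 and srpr-2.2 spread along the gene, and srpr-3 has none.

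The other 4 genes whose names begin with srpr- are annotated SRP RNA genes of almost the same length, 298 or 299 bp. None had an IDR summit, and 3 of the 4 had a pooled summit within 200 bp. The gene srpr-2.1 on chromosome III (5211220 to 5211518, plus strand), between syx-16 and ZC155.4, had signals of 38.6 in replicate 1 and 13.4 in replicate 2, a mean of 26.0 ± 17.9 (SD, n = 2), and a pooled signal of 50.5, rank 346. In replicate 1 it was thus higher than srpr-2.2, and in replicate 2 lower. The gene srpr-1.2 (III, 4369468 to 4369766, plus strand, in an intron of ckb-2, a choline kinase gene on the same strand) had 33.7 and 14.2, a mean of 24.0 ± 13.7 (SD, n = 2), and a pooled signal of 44.7, rank 534. The gene srpr-1.1 (III, 4378909 to 4379206, minus strand, 2 bp from the end of pals-26) had 26.9 and 19.5, a mean of 23.2 ± 5.27 (SD, n = 2), and a pooled signal of 45.2, rank 503.

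The means of srpr-2.2 and of these 3 copies, 29.2, 26.0, 24.0 and 23.2, lie closer together than the SD between replicates of srpr-2.2. That SD also holds the difference between the lists, since replicate 1 was higher at 181 of 229 nuclear IDR peaks. Within each replicate srpr-2.2 was above srpr-1.2 and srpr-1.1, while its order against srpr-2.1 changed. With 2 replicates these orders were not tested. In replicate 1 the 4 genes ranged from 26.9 to 38.6, with srpr-2.1 highest. In replicate 2 they ranged from 13.4 to 23.7, with srpr-2.2 highest. At srpr-1.1 the summits did not lie in the gene. They were past its 3′ end, by 156 bp in replicate 1, 89 bp in replicate 2 and 109 bp in the pooled list, the side on which pals-26 ends. A stronger peak of replicate 2, with a signal of 29.5, lay 382 bp past the 3′ end and so outside the distance used. The fifth gene, srpr-3 on chromosome V (9293334 to 9293632, minus strand), overlapped over its whole length by the noncoding RNA F44A2.13 on the same strand, had no summit within 200 bp in any of the 4 lists. The nearest within 1000 bp was a peak of replicate 1, 825 bp before the gene, with a signal of 12.5, rank 18223.

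The sequences of these SRP RNA genes show how alike the copies are. In a global alignment srpr-2.2 and srpr-2.1 were identical at 296 of 299 positions and differed by C90T, A249G and A265G, counted from 1 at the first base of the gene and written from srpr-2.2 to srpr-2.1. Against srpr-1.1 and srpr-1.2, srpr-2.2 was 94.0% identical, and against srpr-3, the copy without a summit, it was 81.7% identical over 300 columns. The first pair of sequences is shown with the 3 differing bases in capitals, from chrIII:5031410-5031708 on the minus strand and chrIII:5211220-5211518 on the plus strand. The sequence of srpr-3, from chrV:9293334-9293632 on the minus strand, has in capitals its 54 bases that differ from srpr-2.2. All are from RefSeq's WBcel235 genome.
srpr-2.2: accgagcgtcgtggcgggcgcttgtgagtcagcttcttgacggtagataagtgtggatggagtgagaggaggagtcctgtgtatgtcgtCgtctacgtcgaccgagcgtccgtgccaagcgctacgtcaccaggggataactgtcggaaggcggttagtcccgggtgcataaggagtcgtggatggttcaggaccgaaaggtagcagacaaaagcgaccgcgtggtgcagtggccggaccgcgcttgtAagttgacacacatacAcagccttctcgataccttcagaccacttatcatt
srpr-2.1: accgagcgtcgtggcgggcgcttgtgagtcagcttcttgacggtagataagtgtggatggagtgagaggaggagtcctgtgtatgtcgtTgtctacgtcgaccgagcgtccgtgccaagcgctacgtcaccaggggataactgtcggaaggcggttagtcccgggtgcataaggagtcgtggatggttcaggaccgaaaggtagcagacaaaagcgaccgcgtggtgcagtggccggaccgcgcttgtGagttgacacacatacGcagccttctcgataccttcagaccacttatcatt
srpr-3: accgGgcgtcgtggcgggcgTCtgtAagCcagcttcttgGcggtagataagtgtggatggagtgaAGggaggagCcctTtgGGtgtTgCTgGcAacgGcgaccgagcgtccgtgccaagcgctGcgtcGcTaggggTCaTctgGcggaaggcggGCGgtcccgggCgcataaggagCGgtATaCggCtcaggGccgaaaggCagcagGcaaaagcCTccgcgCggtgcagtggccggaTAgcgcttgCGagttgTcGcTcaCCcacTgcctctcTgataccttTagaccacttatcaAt

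Copies this alike share stretches as long as short sequencing reads. Of the 250 stretches of 50 bases in srpr-2.2, 101 (40.4%) occur once in the genome when both strands are counted, and the most frequent occur 3 times. The shares were 38.8% in srpr-2.1, 41.2% in srpr-1.2 and 23.3% in srpr-1.1. Every stretch of rpr-1, mrpr-1 and srpr-3 was unique. With 200 bp on each side included, 75.2% of the stretches at srpr-2.2 were unique. With stretches of 36 bases the share in the gene was 33.0% for srpr-2.2 and 14.8% for srpr-1.1. The sources used here do not give the read length or how reads with several matching places were handled, and the part of shared reads in the srpr- signals was not tested.

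**Figure D3:**
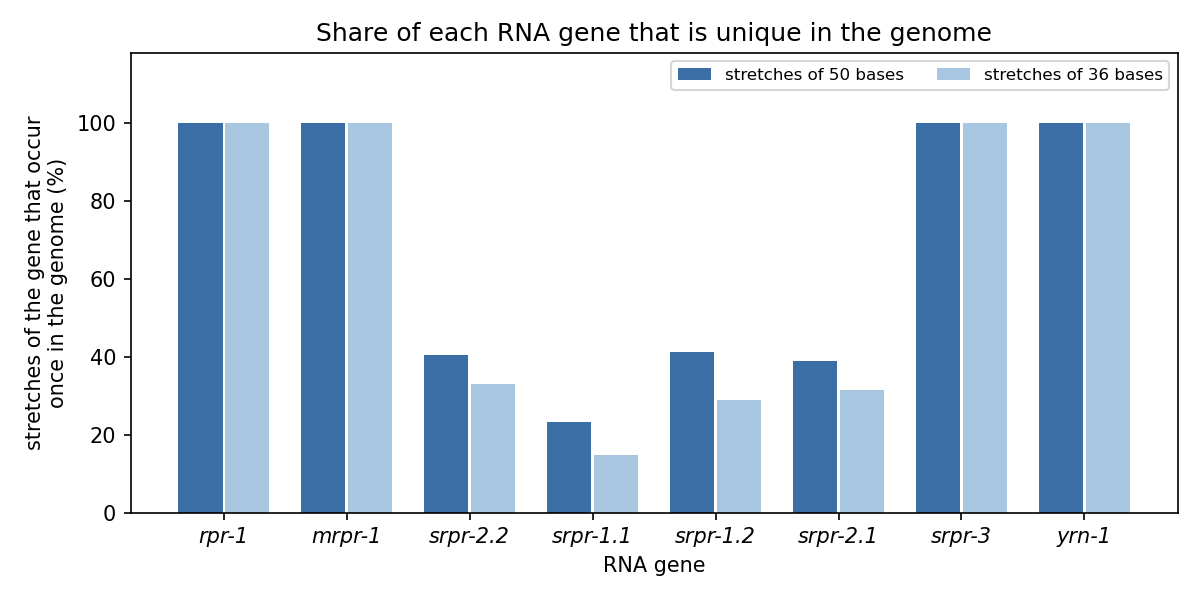
Share of the stretches of 50 bases (dark bars) and 36 bases (light bars) in each RNA gene that occur once in the genome, in percent, by exact match on both strands. The bars reach 100% for rpr-1, mrpr-1, srpr-3 and yrn-1 and lie between 14.8% and 41.2% for the remaining 4 srpr- genes.

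The regions just before the genes differed more than the genes did. Over the 100 bp upstream, srpr-1.1 and srpr-1.2 were identical at 95 of 100 positions, while srpr-2.2 had at most 64.2% identity with any other srpr- gene, in alignments with gaps. The motifs searched were TATAA and, as a run of 4 T, TTTT, both on the gene's own strand, and the E-box CANNTG and the tRNA B-box core GTTCGA on both strands. TATAA was found in the 100 bp before mrpr-1, starting 30 bp upstream, and before rpr-1, starting 28 bp upstream. It was not found before any srpr- gene, and 12.5% of nuclear small RNA genes and 12.0% of nuclear ncRNA genes hold it there. The 4 srpr- genes with a pooled summit shared the 8 letters GAAAAACC immediately before the first base. These letters stand before 4 of the 7764 nuclear ncRNA genes, which are those same 4 copies, and 0 of the 1368 small RNA genes. The gene srpr-3 lacks them, as do rpr-1, mrpr-1 and yrn-1, which have pooled summits. This shared run was searched for only after the sequences had been seen. The upstream windows are shown with TATAA and the shared run in capitals.
mrpr-1: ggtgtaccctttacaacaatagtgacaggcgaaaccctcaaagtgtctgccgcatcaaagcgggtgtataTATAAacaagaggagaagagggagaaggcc
srpr-2.2: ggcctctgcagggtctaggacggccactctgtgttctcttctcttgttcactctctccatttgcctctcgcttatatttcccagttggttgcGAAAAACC
srpr-2.1: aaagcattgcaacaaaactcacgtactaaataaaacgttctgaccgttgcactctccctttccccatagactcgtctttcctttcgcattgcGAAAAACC
srpr-1.2: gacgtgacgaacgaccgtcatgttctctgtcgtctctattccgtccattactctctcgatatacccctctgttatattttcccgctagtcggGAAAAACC
srpr-1.1: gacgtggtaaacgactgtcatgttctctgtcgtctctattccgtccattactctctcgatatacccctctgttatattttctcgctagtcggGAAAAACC
srpr-3: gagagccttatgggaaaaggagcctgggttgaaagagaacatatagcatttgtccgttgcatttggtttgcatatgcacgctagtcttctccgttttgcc

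The letters of an E-box were not found at any of the 3 IDR summits. Within 50 bp on each side, 0 of the 3 summits held CANNTG, against 31.7% of the 230 nuclear IDR summits and 32.6% of the 6661 nuclear pooled summits. None of the 3 genes held an E-box in its own sequence. Upstream, srpr-2.2 had 2 E-boxes within 100 bp, the nearer starting 19 bp before the gene, and rpr-1 and mrpr-1 had none, where 34.4% of nuclear small RNA genes have at least 1 in a window of that length. Among the other genes, srpr-3, with no summit, had 3 E-boxes in that window and yrn-1 had 1. The genes srpr-1.1, srpr-1.2 and srpr-2.1, with pooled summits, had 0 there. Inside the gene, srpr-1.1, srpr-1.2 and srpr-3 held 1 each, and srpr-2.1 and yrn-1 held 0. Whether E-boxes go with the peaks was not tested. GTTCGA was likewise absent from the 3 summit windows, while 33.0% of nuclear IDR summits and 5.82% of pooled summits held it. A run of 4 T in the last 10 bases or the next 10 was found at all 3 genes, and at 60.9% of nuclear small RNA genes and 21.5% of nuclear ncRNA genes. A match or its lack in these windows is a description of the letters only.

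The summits were then set beside those at other small RNA genes. At the 124 nuclear IDR peaks with a tRNA gene the median summit lay 40.5 bp after the first base, at the 35 with a snoRNA gene 27 bp before it (a median of -27 bp), and at the 10 with an snRNA gene 99.5 bp after it. The IDR summit of rpr-1, 18 bp after its first base, thus lay within the interquartile range of the tRNA summits (11 to 70 bp). Those of mrpr-1 and srpr-2.2, at 129 and 112 bp, lay beyond that range, in genes longer than a tRNA gene. As a share of gene length the members kept their order, with the summit at 7.11% of rpr-1, 37.5% of srpr-2.2 and 69.4% of mrpr-1. The median at tRNA genes was 54.8%, so by this measure srpr-2.2 lay below it. By pooled signal, rpr-1 was above the median of each class, which was 70.6 for tRNA, 89.0 for snoRNA and 71.3 for snRNA genes, and mrpr-1 and srpr-2.2 were below all of these medians.

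The noncoding genes most like each member were those whose signals in the 2 replicate lists were nearest on the log2 scale, among 308 noncoding genes with an IDR summit within 200 bp. For rpr-1 these were the snoRNA gene B0334.12, with 68.2 in replicate 1 and 37.1 in replicate 2, an asparagine tRNA gene on X with 78.1 and 40.7, and a glutamate tRNA gene on X with 63.9 and 35.5. The IDR summit at this glutamate gene lies nearer to another tRNA gene. For mrpr-1 the nearest were the snoRNA gene F11A10.9, with 27.7 and 34.4, and tRNA genes for cysteine (28.6 and 33.4) and arginine (28.8 and 32.9). For srpr-2.2 they were a lysine tRNA gene with 35.2 and 23.7, the snoRNA gene F12F6.11 with 33.8 and 24.1, and a glutamine tRNA gene with 35.2 and 24.5. With 2 replicates, such a likeness describes the levels in these lists only.

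**Figure D4:**
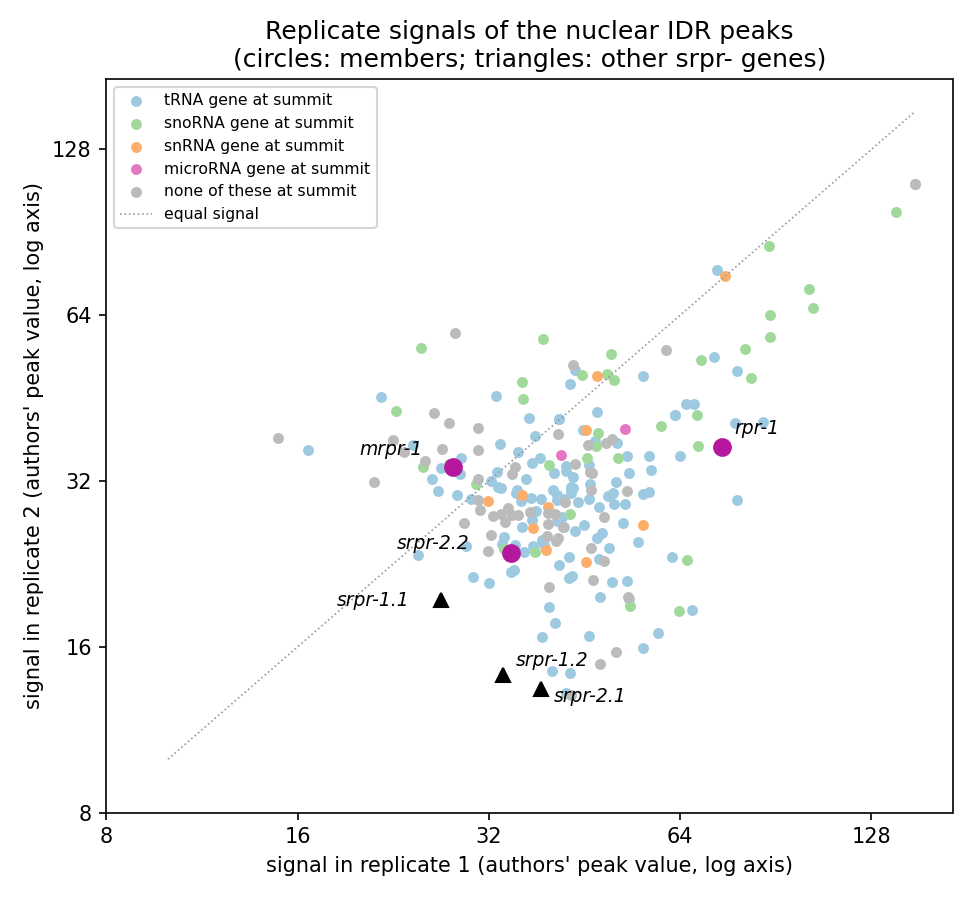
Signal in replicate 1 (horizontal) and replicate 2 (vertical), on log axes, of the 229 nuclear IDR peaks with a value in both, coloured by the RNA gene at the summit, with the members as large circles and other srpr- genes as triangles. The gene mrpr-1 lies above the line of equal signal, rpr-1 and srpr-2.2 below it, and the triangles lie lower in replicate 2 (13.4 to 19.5) than srpr-2.2 (23.7).

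The gene yrn-1, for the Y RNA that binds the Ro protein and another product of RNA polymerase III, was taken as a further comparison. It lies on chromosome IV (7499508 to 7499612, plus strand) in an intron of F55G1.15 on the opposite strand. It had a signal of 20.5 in replicate 2, no summit within 200 bp in replicate 1 and a pooled signal of 34.4, rank 1875. This was lower than at any of the 3 members.

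The genes for the protein partners of these RNAs were set beside all nuclear protein-coding genes by their promoter summits. Of 16 protein-coding genes taken for RNase P, RNase MRP and SRP by name or by RefSeq product, 0 had an IDR summit in the promoter, and since 0.365% of all nuclear protein-coding genes had one, a count of 0 says nothing particular about 16 genes. In the pooled list it was 2 of 16 (12.5%), against a background of 9.03%. One of these was mig-2, with a pooled signal of 38.7 (rank 1035), 22.96 in replicate 1 and no summit in replicate 2. Only the RefSeq product text brought mig-2 into the list, and without it the count was 1 of 15 (6.67%). In the list of replicate 1 a promoter summit was found at 4 of 16 (25%), against 23.4% of all nuclear protein-coding genes, and in that of replicate 2 at 2 of 16 (12.5%), against 25.8%. There F37F2.2, for the SRP19 protein, had promoter signals of 21.8 and 19.8, and popl-4, for an RNase P subunit, had 15.5 in replicate 1 only. The other 12 had no promoter summit in any list. For RNase P or MRP they were popl-1, popl-5, popl-7, H35B03.2, Y37E11AM.4 and Y62E10A.24. For SRP they were srpa-72, F21D5.7, F25G6.8, F25G6.9, ZK512.4 and Y37F4.4, the last for its docking protein. This grouping follows the product names, except at popl-7, which has none and was placed by its gene name. Of the 12, popl-7 and Y62E10A.24 overlap and are not separate loci.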

How the data were processed

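The values came from ChIP-seq peak lists of HLH-12 in 2 biological replicates of 1 group. Per the listings deposited with the lists, each relaxed list was made on ce11 from the alignments and 1 further file that also entered the control-normalized tracks, and the IDR list from the 3 relaxed lists. The sources used here do not give the aligner, the peak caller or any scaling of signal for depth, and read depth is unknown. The peak signal and the −log10 q value were deposited by the authors for each peak. The nuclear IDR list is the 230 nuclear pooled peaks of highest signal.

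A summit is the peak start plus the deposited offset. Genes came from Ensembl release 115 for WBcel235, the assembly of ce11, and every ce11 peak lies within its chromosome lengths. Sequence and product names came from RefSeq for the same assembly. A gene had a peak when a summit lay within 200 bp, and its replicate signal was the strongest such summit. Signals are given with the SD of both replicates. Ranks run over the nuclear chromosomes. Sequences were aligned globally with Biopython 1.88 (match 1, mismatch -1, gap opening -2, gap extension -0.5), and stretches were counted by exact match in the genome. The assignment and counting code was tested on simulated data with known answers. Python 3.11.15, pandas 2.3.3, numpy 2.4.6 and matplotlib 3.10.9 were used.

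The members and lists were chosen with earlier results of these data known, from the lists described, so no test was made. Named genes are the members, the other srpr- genes, yrn-1, host and flanking protein-coding genes, the protein list and the 3 noncoding genes nearest each member in replicate signal. The overlapping noncoding RNAs and the genes of the closing section were named after their values were seen. The product search required RNase P or its long name as a whole word. The ce10 lists were not used. The values of 1 gene of the protein list are not reported here. The alternatives were other distances, overlap of peak and gene, the stronger IDR peaks, each replicate alone, other ranks, signals, promoters and upstream windows.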

Additional observations from a re-analysis of the deposited data

How the results depend on the processing

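All 3 members kept an IDR summit with a summit distance of 100 or 500 bp and with overlap of peak and gene by at least 1 bp. This was fixed in advance, since each of these summits lies inside its gene. Under the same settings 0 of the other 4 srpr- genes gained an IDR summit. The count fell to 1, rpr-1, with only the stronger 115 nuclear IDR peaks. With one replicate alone, through its 230 strongest nuclear peaks, it ranged from 1 to 2. These were rpr-1 and mrpr-1 without replicate 1, and rpr-1 without replicate 2. The other srpr- genes were not counted in this setting. Of these, srpr-2.1 ranked 169 in replicate 1, inside its 230 strongest nuclear peaks, where srpr-2.2 ranked 234. With one replicate left out, the rank ranged from 15 to 69 for rpr-1, from 101 to 560 for mrpr-1 and from 234 to 624 for srpr-2.2, where the cause was not tested, and with mitochondrial peaks the ranks were 36, 219 and 228. The count of protein genes with a pooled promoter summit was 2 as reported and 1 when the upstream reach was cut to 500 bp. It was 4 with 2000 bp upstream and 500 bp inside the gene, a wider window by construction. The share of all nuclear protein-coding genes in these other windows is not given here, so nothing is read from these counts. Of 41 alternative values, 34 stayed within 1.5 times the reported count or share or, for signals and ranks, within 1 SD of the replicates, 7 moved beyond it and 0 reversed. The 34 include the distance and overlap settings at the members, and a rank of 101 in place of 204 for mrpr-1. With 2 replicates, unknown depth and no library without the tag, the lists set no error on a single peak beyond the SD shown.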

Other observations

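Other annotated noncoding RNAs had IDR peaks too. Of the 59 nuclear IDR peaks with no tRNA, snoRNA, snRNA, rRNA or microRNA gene within 200 bp, 11 had a gene of the class ncRNA or lincRNA there, and 3 of these are the peaks of rpr-1, mrpr-1 and srpr-2.2. Among the 11, rpr-1 had the highest pooled signal, 112.0. Next came Y65B4BR.10 (128 bp) with 75.2 and replicate signals of 43.8 and 34.4, a mean of 39.1 ± 6.66 (SD, n = 2). The neighbouring genes C07H6.15 and C07H6.17 shared a peak of 69.9, with 46.4 in replicate 1 and 24.2 in replicate 2. The long noncoding RNA linc-44 had 65.6, with 52.8 and 30.6, and K10H10.11 and K10H10.14 shared a peak of 65.5, with 34.8 and 33.0. The genes T28D6.10, T28D6.13 and T28D6.15 shared one of 62.6, with 48.5 and 22.9, and C14F11.14 had 62.6 as well, with the higher signal in replicate 2 (42.6 against 26.2), as at mrpr-1. The remaining pair of peaks lay in C30E1.9, a transcript of 14770 bp, with 59.7 and 57.97. Apart from linc-44, these genes carry only sequence names, and they were listed after the data had been seen.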
